A study of Homo sapiens with 2 samples.

Results

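The miRNAs described here carry a number of 1000 or higher in their names and reached at least 1 normalized read in at least 1 of 2 small RNA libraries. They were chosen from the deposited table by that number and by the larger of its 2 library columns, leaving out miR-1323 and names that start with miR-3074, miR-3184 or miR-3529. The rule gave 144 entries of 1213. The table lists 616 entries with such a number, of which 149 reached 1 normalized read, 5 were left out by name and 467 were listed at 0 in both libraries. Since the levels chose the members, those levels are given as a description. The choice did not use the direction of a difference between the libraries.

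The compared cells were UM-SCC6, an oral squamous cell carcinoma line of human origin, used here unselected as the parental culture, and its derivative UM-SCC6-M. UM-SCC6-M came from parental cells that crossed a matrix-filled channel of a microfluidic chip, were harvested and were sent through again, for 3 rounds in all, with growth in a dish between rounds. No genotype or added agent separates the cultures in the labels, and cells that passed the selection were expanded afterwards, so they were not sampled inside the matrix. Each culture gave 1 library, so no difference has a replicate check, no test between cultures was made, and every interval covers counting error only. Over all entries 7699490 reads were recovered from UM-SCC6-M, against 8182958 from the parental culture. Normalized reads are the values as scaled by the authors, and 10 normalized reads stood for 83.7 reads in UM-SCC6-M and 75.3 in the parental library. A value listed at 0 can hide up to 8 reads in UM-SCC6-M and up to 7 in the parental library.

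A miRNA is cut from a hairpin transcript by Drosha and Dicer, and one strand guides an Argonaute protein to messenger RNAs that pair with its seed, bases 2 to 8. Numbers were given in order of discovery, so high numbers mostly belong to miRNAs that were found by deep sequencing, are weakly expressed and are often limited to primates. Some names of this kind are disputed, because their reads can be pieces of tRNAs, small nuclear or nucleolar RNAs, and others sit in introns or exons of host genes whose transcription they share.

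The sequences below come from RefSeq (GRCh38.p14), which gave a mature sequence for 124 of the 144 entries. The first set holds the 8 matched members whose higher library held 50 or more normalized reads, since most reads of the 144 entries fall on them. Capitals mark the seed.
miR-4521: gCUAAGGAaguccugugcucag
miR-2682-5p: cAGGCAGUgacuguucagacguc
miR-3615: uCUCUCGGcuccucgcggcuc
miR-1307-3p: aCUCGGCGuggcgucggucgug
miR-7706: uGAAGCGCcugugcucugccgaga
miR-1180-3p: uUUCCGGCucgcgugggugugu
miR-7974: aGGCUGUGaugcucuccugagccc
miR-1303: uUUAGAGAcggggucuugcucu
No seed is shared among these 8. Over the 124 matched entries there were 122 distinct seeds. CUCACCA was common to miR-6511a-3p and miR-6511b-3p, and GGCCCUG to miR-1291 and miR-6775-3p.

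A further set holds the 6 members below 50 normalized reads whose whole counting interval lay beyond 2-fold, and miR-1260b, which the authors marked as selected. Capitals again mark the seed.
miR-1307-5p: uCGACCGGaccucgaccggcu
miR-2682-3p: cGCCUCUUcagcgcugucuucc
miR-1257: aGUGAAUGauggguucugacc
miR-1277-5p: aAAUAUAUauauauauguacguau
miR-6501-5p: aGUUGCCAgggcugccuuuggu
miR-1260b: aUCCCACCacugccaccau
miR-4454: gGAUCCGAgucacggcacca
In miR-1277-5p the seed holds only A and U and leads into a run in which they alternate. The last 2 are among the names reported as fragments of other RNA classes.

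Hairpins are shown for miR-4521 and miR-7974, the 2 members that mark the group, and for MIR2682 and MIR3158-1, which each gave both arms. Capitals mark the mature arms.
MIR4521: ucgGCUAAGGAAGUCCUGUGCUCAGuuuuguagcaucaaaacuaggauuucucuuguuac
MIR7974: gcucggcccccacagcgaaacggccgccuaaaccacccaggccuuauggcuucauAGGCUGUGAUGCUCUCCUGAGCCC
MIR2682: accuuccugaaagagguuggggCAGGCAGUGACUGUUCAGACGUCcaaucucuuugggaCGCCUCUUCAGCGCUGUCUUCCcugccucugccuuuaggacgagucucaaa
MIR3158-1: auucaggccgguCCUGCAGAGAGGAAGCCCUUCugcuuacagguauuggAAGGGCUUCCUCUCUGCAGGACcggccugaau
MIR4521 and MIR7974 each have 1 named arm, which lies on the 5′ side in MIR4521 and on the 3′ side in MIR7974.

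As a group these names were thinly read. Their share of the reads was 0.390% in UM-SCC6-M (exact Clopper-Pearson 95% interval 0.386% to 0.394%, 30020 reads) and 0.359% in the parental library (0.354% to 0.363%, 29337 reads). Without miR-4521 the shares were 0.243% and 0.314%. In the authors' scaling the members summed to 3568 normalized reads in UM-SCC6-M and 3882 in the parental library, so the order of the libraries turned on the scaling and on that 1 miRNA. Of the 144 entries, 9 reached 50 normalized reads in the higher library, 24 lay from 10 to under 50, and 111 (77.1%) stayed under 10. Those 111 summed to a share of 0.0252% in UM-SCC6-M and 0.0233% in the parental library.

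Names numbered under 1000 were read more often. At least 1 normalized read was listed for 24.2% of the 616 late-numbered entries and 70.6% of the 562 others, and at least 10 for 6.01% and 44.7%. Among the members, 58 stayed under 2 normalized reads. Nearest above the threshold of 1 were 10 members whose higher library held the smallest value listed in its column. That was 1.06 in the parental library (8 reads) for 5 of them, among them miR-1468-5p, miR-4690-3p and miR-3690. It was 1.07 in UM-SCC6-M (9 reads) for the other 5, among them miR-1275, miR-1248 and miR-3065-5p. No entry just below the threshold has a known value, since each is listed at 0. A listed value in both libraries was found for 92 members, while 30 were listed at 0 in UM-SCC6-M and 22 in the parental library.

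**Figure D1:**
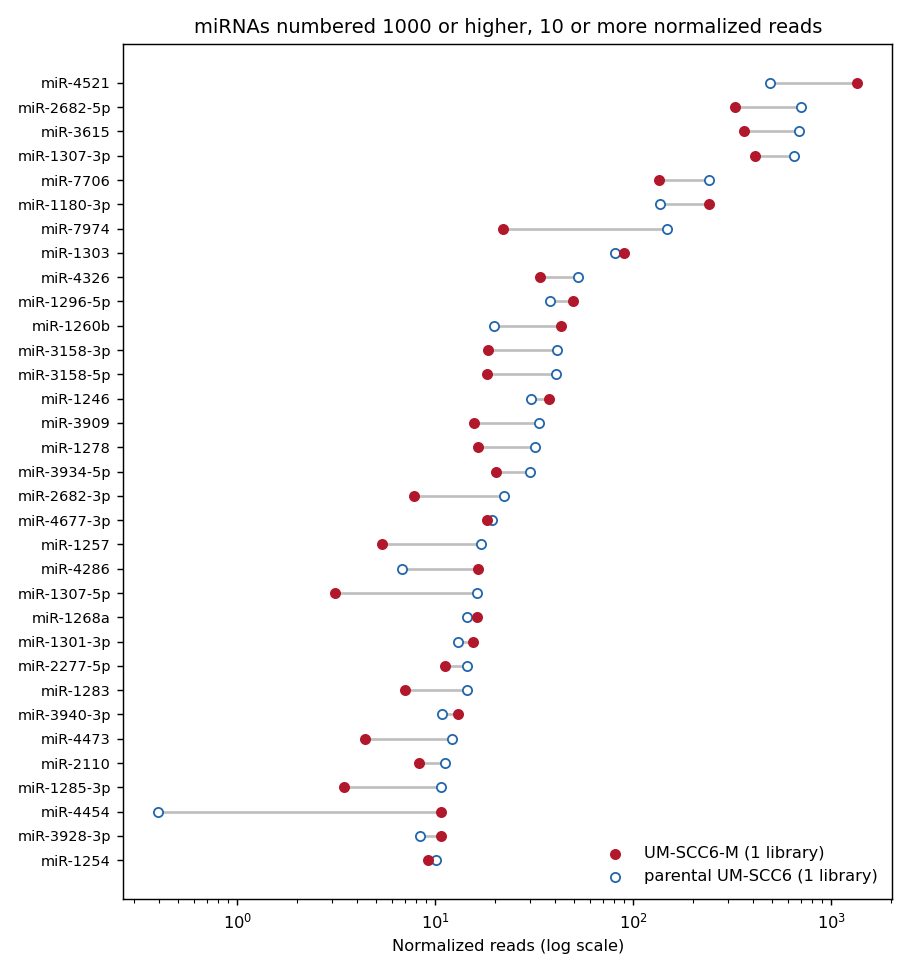
Normalized reads (log scale) of the 33 members that reached 10 in either library, 1 point per library, with no error bars because each culture gave 1 library. miR-4521 reached 1353 in UM-SCC6-M, and miR-7974 fell from 147.5 in the parental library to 21.9.

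In the plot of levels by library, miR-4521 stands apart in UM-SCC6-M. It was listed at 1353 normalized reads there and 488.5 in the parental library (11332 and 3676 reads). The log2 ratio of UM-SCC6-M over parental, with 0.5 recovered reads added to each library, was 1.47 (exact 95% counting interval 1.42 to 1.52), which is 2.77-fold higher (2.67 to 2.88). Among the reads of all members, its share was 37.7% in UM-SCC6-M (37.2% to 38.3%) and 12.5% in the parental library (12.2% to 12.9%). It ranked 58 among all entries in UM-SCC6-M and 87 in the parental library. The mature sequence lies on chromosome 17 at 8186948 to 8186969 (GRCh38, plus strand), between annotated genes of GENCODE release 29.

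miR-7974 moved the other way. Its level was 21.9 normalized reads in UM-SCC6-M and 147.5 in the parental library (183 and 1110 reads). The log2 ratio was -2.75 (-2.99 to -2.53), or 6.73-fold lower (5.77 to 7.94). Its rank went from 123 in the parental library to 212. The mature sequence lies on chromosome 19 at 11495544 to 11495567 (minus strand), in an intron of ZNF653, which encodes a zinc finger protein. In the authors' deposited table the comparison of the libraries gives q-values of 2.39e-125 for miR-4521 and 2e-19 for miR-7974. Those q-values describe 2 libraries and carry no replicate error.

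Both arms of the MIR2682 hairpin were read, and both were lower in UM-SCC6-M. The 5p arm had 326.6 normalized reads in UM-SCC6-M and 705.4 in the parental library, where it was the most abundant of the 144 members (2735 and 5308 reads). Its log2 ratio was -1.11 (-1.18 to -1.04), or 2.16-fold lower (2.06 to 2.26). The 3p arm had 7.76 and 22.2 normalized reads (65 and 167 reads), a log2 ratio of -1.51 and a 2.85-fold lower level (2.13 to 3.87). The 5p arm lies on chromosome 1 at 98045307 to 98045329 (minus strand), in an exon of MIR137HG, the long noncoding host transcript of miR-137. MIR137 is 719 bases away, and its product, listed as miR-137 without an arm, went the other way from both arms of MIR2682. It had 187.0 normalized reads in UM-SCC6-M and 148.4 in the parental library (1566 and 1117 reads), a log2 ratio of 0.33 (0.22 to 0.45).

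The seed of miR-2682-5p is that of 2 older miRNAs of the family that holds miR-34 and its relatives, which is known for p53-linked control of the cell cycle and for ciliated epithelium. The 3 sequences are set side by side because they differ outside the seed, which is in capitals.
miR-2682-5p: cAGGCAGUgacuguucagacguc
miR-449c-5p: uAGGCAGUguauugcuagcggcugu
miR-34b-5p: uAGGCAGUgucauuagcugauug
miR-449c-5p was scarce, with 2.27 normalized reads in UM-SCC6-M and 8.77 in the parental library (19 and 66 reads), and its log2 ratio was -1.92 (-2.77 to -1.20). miR-34b-5p has no entry in the table. Of 5 members that shared a seed with an older miRNA, 1 was paired with an abundant one. That was miR-3155b, listed at 0 in UM-SCC6-M and 1.86 in the parental library. Its older relative miR-484 had 282.9 and 308.6 normalized reads and a log2 ratio of -0.13.

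The next 3 abundant members sit in exons near the start of protein-coding genes, and all were lower in UM-SCC6-M by less than 2-fold. miR-3615 had 363.6 normalized reads against 682.2 in the parental library (3045 and 5134 reads), a log2 ratio of -0.91 and a 1.88-fold lower level (1.79 to 1.96). It lies on chromosome 17 at 74748663 to 74748683 (plus strand) in the 5′ UTR of SLC9A3R1, which encodes a scaffold protein that links membrane proteins to ezrin. miR-1307-3p had 410.3 against 644.2 (3436 and 4848 reads), a log2 ratio of -0.65 (-0.71 to -0.59) and a 1.57-fold lower level. It lies on chromosome 10 at 103394301 to 103394322 (minus strand) in the 5′ UTR of ATP5MD, which encodes a small subunit of the mitochondrial ATP synthase. miR-7706 had 134.3 against 241.9 (1125 and 1820 reads), a log2 ratio of -0.85 and a 1.80-fold lower level (1.67 to 1.94). It lies on chromosome 15 at 85380639 to 85380662 (plus strand) in the 5′ UTR of AKAP13, which encodes an anchoring protein for protein kinase A. Messenger RNA of the host genes was not measured in these libraries.

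The other abundant members moved less or in the other direction. miR-1180-3p, from an intron of the ciliary gene B9D1 (chromosome 17, 19344513 to 19344534, minus strand), had 239.8 normalized reads in UM-SCC6-M and 135.5 in the parental library (2008 and 1020 reads). Its log2 ratio was 0.82, a 1.77-fold higher level (1.64 to 1.91). miR-1303 (chromosome 5, 154685827 to 154685848, plus strand, between genes) had 90.0 and 80.9 normalized reads (754 and 609 reads). Its log2 ratio of 0.15 has an interval that includes equal levels. miR-4326 had 33.6 and 52.4 normalized reads (281 and 394 reads), a log2 ratio of -0.64 and a 1.56-fold lower level (1.34 to 1.82).

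Within the group the order of the leading names therefore differed between the libraries. The top 5 themselves differed only in miR-1180-3p (UM-SCC6-M) against miR-7706 (parental). The 5 most abundant in UM-SCC6-M were miR-4521, miR-1307-3p, miR-3615, miR-2682-5p and miR-1180-3p. In the parental library they were miR-2682-5p, miR-3615, miR-1307-3p, miR-4521 and miR-7706. Among the members' reads, miR-2682-5p held 9.11% in UM-SCC6-M and 18.1% in the parental library, miR-3615 10.1% and 17.5%, and miR-1307-3p 11.4% and 16.5%. All shares are of 1 total, of which miR-4521 held more in UM-SCC6-M.

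**Figure D2:**
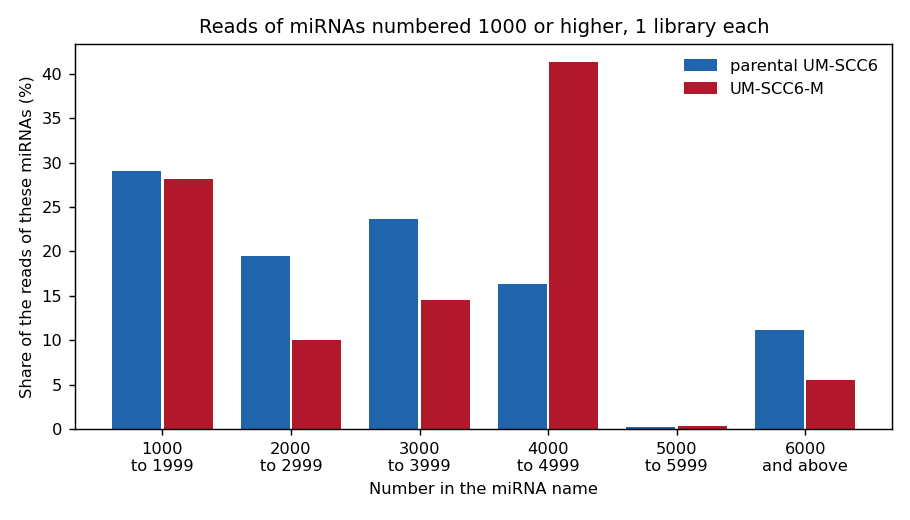
Share (%) of the members' reads by the number in the name, 1 bar per library, without error bars. Names from 4000 to under 5000, which include miR-4521, held 41.3% in UM-SCC6-M and 16.3% in the parental library.

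By number, names under 3000 were listed above the threshold more often than later ones. Of the 82 table entries numbered from 1000 to under 2000, 38 (46.3%) were members, and of the 14 from 2000 to under 3000, 7 (50%) were, against 40 of 150 (26.7%) from 3000 to under 4000, 31 of 153 (20.3%) from 4000 to under 5000, 4 of 39 (10.3%) from 5000 to under 6000 and 24 of 173 (13.9%) at 6000 and above. The plot of read shares by name number shows how unevenly they contributed. Names from 1000 to under 2000 held 28.2% of the members' reads in UM-SCC6-M and 29.1% in the parental library. Names from 2000 to under 3000, led by miR-2682-5p, held 10.1% and 19.5%. Names at 6000 and above, led by miR-7706 and miR-7974, held 5.51% and 11.1%.

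A difference of at least 2-fold was used as a rule of size. All entries here means the named miRNAs with reads known in both libraries, without the 35 table entries that lack a database name. Over all such entries that reached 50 normalized reads in either library, 20.1% passed the rule (36 of 179), 7.26% higher and 12.8% lower in UM-SCC6-M. Among the 9 members at that level, 3 passed, with miR-4521 higher and miR-2682-5p and miR-7974 lower. With at least 10 normalized reads, 22.9% of all entries passed (66 of 288), 7.29% higher and 15.6% lower. Of the 33 members at that level, 15 (45.5%) passed, 4 higher and 11 lower. Of the 251 entries numbered under 1000, 13.5% were lower and 6.77% higher by the rule. From 10 to under 50 normalized reads, 27.5% of all entries passed (30 of 109), 7.34% higher and 20.2% lower, and of the 24 members 3 were higher and 9 lower (37.5%). The share of members that passed was above the share of all entries, and no test of that difference was made. The 11 lower entries include both arms of MIR2682 and both names of the miR-3158 locus, which are not separate observations.

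The floor also bears on these counts. An entry that reached 10 normalized reads in 1 library only had to differ between the libraries, and 11 of the 33 did so, 8 in the parental library and 3 in UM-SCC6-M. Of the 22 members at 10 or more in both, 2 were at least 2-fold higher and 5 at least 2-fold lower. The same count over all entries was not made, so these numbers have no background beside them. The scaling bears on them as well. Scaling to total reads moves every log2 ratio up by 0.24, and then 5 members were higher and 6 lower (18.2%), beside 33 higher and 36 lower (12.5%) of the 288. Under that scaling miR-2682-5p (log2 ratio -0.87) no longer reached 2-fold and miR-1180-3p (1.06) did.

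**Figure D3:**
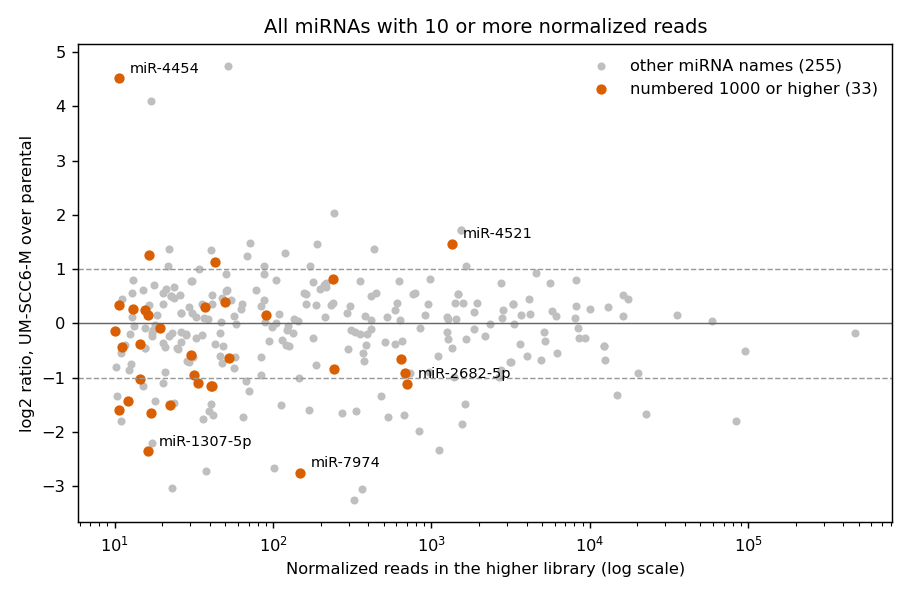
Log2 ratio of UM-SCC6-M over parental UM-SCC6 against normalized reads in the higher library (log scale), 1 point per miRNA with at least 10, members marked apart from the other names. The median of the 33 members was -0.58 and that of the 251 names numbered under 1000 was -0.02.

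The plot of log2 ratio against level places the members among all miRNAs. Their median log2 ratio at 10 or more normalized reads was -0.58 (quartiles -1.11 and 0.27), beside -0.02 for the 251 names numbered under 1000 and -0.08 for all 288. Of the 33 members, 21 (63.6%) lay below 0, and of the 251, 128 (51%). At 50 or more normalized reads the medians were -0.65 for the members and 0.06 for names numbered under 1000. The gap between the members' median and that of all 288 was -0.50 under every scaling tried, because a change of scaling moves both alike. No test was made of it. Counting error alone excluded equal levels for 24 of the 33 (72.7%), 7 higher and 17 lower, beside 83% of all 288. The whole interval lay beyond 2-fold for 7 of the 33 (21.2%), beside 16.3% of all 288.

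**Figure D4:**
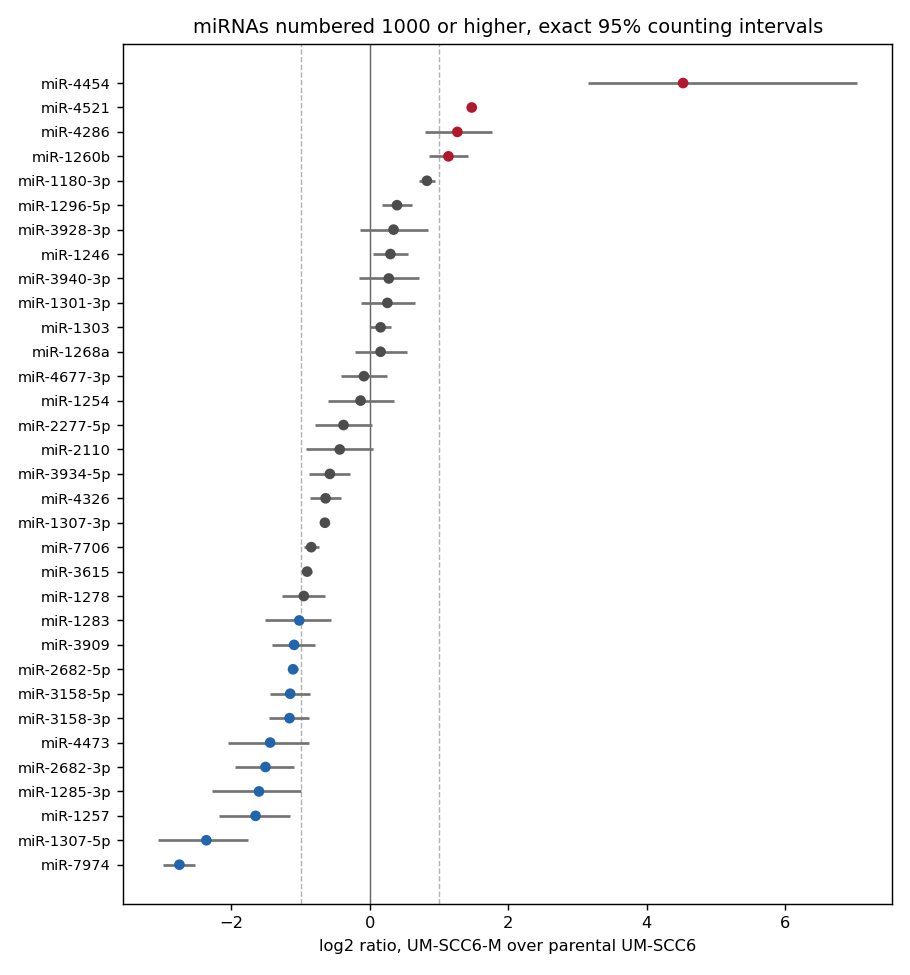
Log2 ratio of UM-SCC6-M over parental UM-SCC6 for the 33 members that reached 10 normalized reads in either library. Bars are exact 95% intervals for counting error only. miR-4454 has the highest ratio (4.52) with a wide interval, and miR-7974 the lowest (-2.75).

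In the plot of log2 ratios with intervals, the upper end of the members from 10 to 50 normalized reads was taken by miR-4454, miR-4286, miR-1260b, miR-1296-5p, miR-3928-3p and miR-1246. miR-4454 had 10.6 normalized reads in UM-SCC6-M and was listed at 0 in the parental library (89 and 3 reads). Its log2 ratio of 4.52 has an interval from 3.14 to 7.04, and the fold has limits of 8.83 and 132. miR-4286 had 16.4 and 6.78 normalized reads, a 2.40-fold higher level (1.74 to 3.40). The first of these stands on 3 parental reads, so its size is poorly known while its direction is outside counting error.

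miR-1260b had 43.2 normalized reads in UM-SCC6-M and 19.7 in the parental library (362 and 148 reads), a log2 ratio of 1.13 and a 2.19-fold higher level (1.81 to 2.68). miR-1296-5p had 49.7 and 37.9, with a log2 ratio of 0.39. The remaining upper names changed less. miR-1246 had 37.4 and 30.4 normalized reads (log2 ratio 0.30), and miR-3928-3p 10.6 and 8.37 (log2 ratio 0.34).

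The lower end held miR-1307-5p, miR-1257, miR-1285-3p, miR-2682-3p, miR-4473 and miR-3158-3p. miR-1307-5p had 3.10 normalized reads in UM-SCC6-M and 16.2 in the parental library (26 and 122 reads), a 5.14-fold lower level (3.40 to 8.31). miR-1257, from the 3′ UTR of TAF4, a subunit of the general transcription factor TFIID, had 5.37 and 17.0 (45 and 128 reads), a 3.14-fold lower level (2.24 to 4.55). Both intervals lie wholly beyond 2-fold. miR-1285-3p had 3.46 and 10.6 normalized reads (29 and 80 reads) and a 3.04-fold lower level (1.98 to 4.87). miR-4473, in an intron of the MLLT3 gene, had 4.42 and 12.1 (37 and 91 reads) and a 2.72-fold lower level. The other 12 members from 10 to 50 ranged from -1.15 (miR-3158-5p) to 0.27 (miR-3940-3p, in an intron of KHSRP, which encodes an RNA-binding protein known to aid miRNA maturation).

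There were 3 hairpins that had both arms at 10 or more normalized reads, and these allow arms to be compared within a library, where scaling cancels. For MIR1307 the 5p arm made up 0.751% of the reads of the hairpin in UM-SCC6-M (0.491% to 1.10%) and 2.45% in the parental library (2.04% to 2.92%), and these intervals do not overlap. The log2 ratio of the 5p arm was 1.71 below that of the 3p arm (difference -1.71, counting standard error 0.31). For MIR2682 the 3p arm made up 2.32% and 3.05%, and the 5p arm's log2 ratio was 0.40 above that of the 3p arm (standard error 0.21). The difference between the arms was under 2 counting standard errors for MIR2682 and over 5 for MIR1307.

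The third, MIR3158, is a different case. It is annotated on both strands of chromosome 10, as MIR3158-1 in an intron of DPCD and MIR3158-2 opposite to it. The 2 mature names are complementary over 20 bases, in capitals here.
miR-3158-5p: CCUGCAGAGAGGAAGCCCUUc
miR-3158-3p: AAGGGCUUCCUCUCUGCAGGac
miR-3158-3p had 18.4 normalized reads in UM-SCC6-M and 41.2 in the parental library (154 and 310 reads), and miR-3158-5p 18.3 and 40.7 (153 and 306 reads). The log2 ratios were -1.16 and -1.15. With nearly equal counts under both names, they are read here as 1 measurement. In all, 5 pairs of names from opposite strands had nearly the same counts, and in 3 of them both names are members. miR-3913-3p and miR-3913-5p both had 8 and 18 reads. miR-3591-3p had the 2 and 15 reads of miR-122-5p, and miR-3065-5p the 9 and 4 reads of miR-338-3p.

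**Figure D5:**
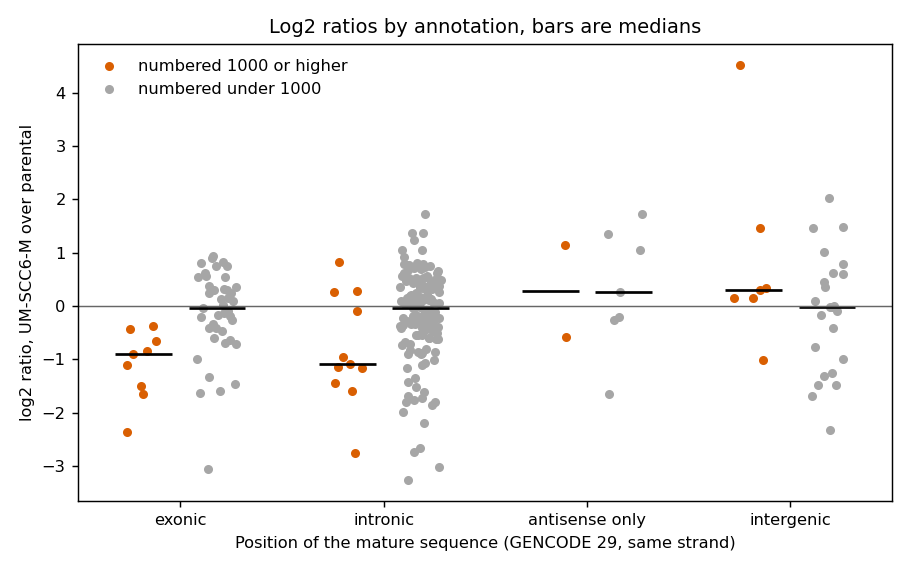
Log2 ratio of UM-SCC6-M over parental UM-SCC6 by position of the mature sequence in GENCODE release 29, same strand, bars at the medians. Each point is a miRNA with at least 10 normalized reads and a matched sequence (29 members and 222 names numbered under 1000). All 9 exonic members lie below 0, with a median of -0.91.

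Apart from the few names left out, position in the genome was not used to choose the members. miR-3591-3p and miR-3065-5p, which lie opposite older names, stayed in. Of the 124 with a sequence, 65 (52.4%) lay in introns, 30 (24.2%) in exons, 11 (8.87%) only opposite to a gene and 18 (14.5%) between genes. For names numbered under 1000 the shares were 64.4%, 18.6%, 5.08% and 11.9%. The plot of log2 ratios by annotation shows the exonic members below 0. All 9 at 10 or more normalized reads were lower in UM-SCC6-M, with a median log2 ratio of -0.91 and a range from -2.36 to -0.38. They come from 7 host transcripts, those of MIR137HG, SLC9A3R1, ATP5MD, AKAP13, TAF4, FAM172A (miR-2277-5p) and CCDC186 (miR-2110), and for 7 of the 9 counting error alone excluded equal levels. Of these 9, 4 were at least 2-fold lower, beside 5 of 43 exonic names numbered under 1000 and 15.6% of all 288 entries. All 9 also stayed below 0 when scaled to total reads, where the highest was -0.14. The exonic names miR-3184-5p (log2 ratio 0.36) and miR-3184-3p (0.55), which the rule left out, lay above 0. Also left out were miR-3074-5p (-0.72, antisense only) and miR-3529-3p (-0.42, intergenic).

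Exonic names numbered under 1000 lay on both sides, with 22 of 43 below 0 and a median of -0.04, and 15 of 43 below 0 when scaled to total reads. Intronic members had a median of -1.10, with 8 of 11 below 0, or 7 when scaled to total reads. For intronic names numbered under 1000 the median was -0.03, with 76 of 148 below 0, or 57 when scaled to total reads. Among intergenic members 1 of 7 lay below 0, and their median was 0.30. Intergenic names numbered under 1000 had 13 of 24 below 0, or 9 when scaled to total reads, and a median of -0.02. These groups were formed after the levels were known and are small, and no difference between them was tested.

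Some late-numbered names have been reported as fragments of other RNA classes. Of the members, 7 are on such a list, made from general knowledge of the names, and 3 of them reached 10 normalized reads. All 3 (miR-1260b, miR-1246 and miR-4454) had log2 ratios above 0, with a median of 1.13, and 2 were at least 2-fold higher, beside 47.6% above 0 and 7.29% at least 2-fold higher among all 288 entries. Below 10 normalized reads, 2 of the 7 had log2 ratios below 0, -0.87 for miR-7641 and -0.81 for miR-3687, with intervals that include equal levels. The 7 summed to 849 reads in UM-SCC6-M and 452 in the parental library. An exact match to an annotated transcript of another class was found for 31 of the 124 sequences. Most of these matched only the host transcript in whose exon they lie, as miR-1257 does in TAF4, which is no sign of a fragment. miR-1260b and miR-4454 had no exact match. The search was not shown to cover nuclear tRNA genes, so a tRNA origin of these names was not tested. In 4 cases the match was a small RNA gene. miR-1246 matched 8 genes of U2 small nuclear RNA, miR-1248 matched SNORA81, miR-1291 matched SNORA2C and miR-6516-3p matched SCARNA16. Reads of such names cannot be told apart from pieces of the longer RNA in a table of counts per name.

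Splicing-derived hairpins are a class cut from short introns without Drosha. By the number in the name alone, 10 members were listed as such, and all stayed under 10 normalized reads. Their origin was not checked, and miR-6733-5p, miR-6873-3p and miR-6840-5p among them lay in annotated exons. The 10 listed names summed to 117 reads in UM-SCC6-M and 118 in the parental library, with 4 log2 ratios above 0 and 6 below. On a short list of repeat-derived names there were 6 members, of which miR-1268a (16.1 and 14.5 normalized reads, log2 ratio 0.15) and miR-1285-3p reached 10. The other members were not searched for repeats, so more of them may be repeat-derived. Among the members, the primate-specific placental cluster on chromosome 19 was represented by miR-1283. It had 7.04 and 14.4 normalized reads (59 and 108 reads) and a log2 ratio of -1.02.

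The sequences of the members differed in make-up from those of older names. Their median GC content was 55.5% over 124, against 47.6% over 354 names numbered under 1000. At 10 or more normalized reads it was 59.1% over 29 and 47.6% over 222. A length of 21 to 23 bases was found for 79.8% of the members and 92.9% of the older names. A 5′ terminal U, the base preferred by Argonaute, was found in 45.2% and 39.3%, and at 10 or more normalized reads in 44.8% and 45.0%.

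Under 10 normalized reads, counts were mostly too low to show a difference. Of the 110 such members with reads known in both libraries, 53 had a log2 ratio above 0 and 57 below. Equal levels were outside the counting interval for 32, 13 higher and 19 lower, and inside it for 78. Such counts were not made for other names under 10 normalized reads, so they are a description of the members only. In 2 of the members the whole interval lay beyond 2-fold. miR-1277-5p, in an intron of WDR44 on the X chromosome, was listed at 0 in UM-SCC6-M and 8.77 in the parental library (6 and 66 reads), a log2 ratio of -3.51 (-5.11 to -2.42). miR-6501-5p, inside the coding sequence of the splicing cofactor SON, had 1.19 and 5.32 normalized reads (10 and 40 reads), a log2 ratio of -2.10 (-3.32 to -1.13). miR-1306-5p, named after its value was seen, lies inside the coding sequence of DGCR8, the partner of Drosha. It had 8.48 and 3.46 normalized reads (71 and 26 reads) and a log2 ratio of 1.28 (0.63 to 2.00). Of the 21 exonic members under 10 normalized reads, 12 had a log2 ratio above 0 and 9 below, so the direction of the 9 above that floor did not extend to them. For miR-4522, 10 parental reads were listed and none were given for UM-SCC6-M, so it has no ratio.

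In the authors' deposited table, 44 of the 1213 entries are marked as selected. Of the 144 members, 5 (3.47%) are marked: miR-4521, miR-7974, miR-2682-5p, miR-1260b and miR-4454. A deposited q-value under 0.05 was given for 11 members (7.64%). The share over all entries was not computed, so that count is not read as a feature of the members.

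The labelled cell type was checked against miRNAs known from epithelium and from other tissues. Of 10 epithelial or squamous miRNAs, 8 have an entry, while miR-141-3p and miR-205-5p have none. Of the 8, 2 (miR-184 and miR-944) are listed at 0. The 8 summed to 19716.5 normalized reads in UM-SCC6-M and 16442.8 in the parental library. Most of that sum was miR-200b-3p (17481 and 12823), while miR-200a-3p (1344 and 2674), miR-429 (793 and 845), miR-31-5p (93.9 and 98.5) and miR-200c-3p (1.79 and 2.66) had fewer normalized reads in UM-SCC6-M. miR-203a-3p was at 2.75 in UM-SCC6-M and listed at 0 in the parental library. Of 7 stromal miRNAs, 3 were listed above 0 in UM-SCC6-M and 4 in the parental library, with sums of 113 and 64.6, while miR-127-3p, miR-145-5p and miR-214-3p stood at 0. Of 6 blood miRNAs, 4 have an entry and only miR-486-5p was above 0, with sums of 17.9 and 24.6. Endothelial miR-126 summed to 550 and 986, and muscle miRNAs to 111 and 337. The part of these sums in the members' levels was not tested. In bulk RNA, fewer cells with a miRNA and less of it per cell cannot be told apart.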

How the data were processed

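Each small RNA library took 3 µg of total RNA and gel fragments of 140 to 160 bp, per the labels' protocols. The submitters' processing notes name Bowtie. Its version, the build, the database release behind the names and the method of scaling are not given in the sources used here. In the authors' deposited table there is 1 signal column per library, scaled by the authors, the authors' log2 fold change, p-value and q-value, and the authors' mark for selected miRNAs, per the file headers. These last columns were copied, except that the deposited log2 fold change gave the reads of a library listed at 0.

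Signal values were whole multiples of a library's step (0.119 in UM-SCC6-M, 0.133 in the parental column), so reads were recovered by division, whole within 0.000229. Values below 1 were listed as 0. Log2 ratios used the authors' scaling with 0.5 recovered reads added. Exact Clopper-Pearson 95% intervals came from the binomial split of the reads of a miRNA. The plan assumed that the values could be divided into reads. With 1 library per group no test was made.

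The members, lists and rules were chosen with earlier results of these data known. Named were every member at 50 or more normalized reads in the higher library, the 6 highest and 6 lowest ratios from 10 to 50, members under 10 whose whole interval lay beyond 2-fold, the members nearest the threshold of 1, the 5 most abundant per library, hairpins with both arms at 10 or more, seed relatives of abundant older miRNAs and list members at 10 or more. Other names were singled out after their values were seen. For the 5 members at each smallest listed value, 3 are named. Mature positions and overlaps came from RefSeq sequences and GENCODE release 29 (GRCh38), with the first locus used where a name has 2. Alternatives were other scalings, floors, fold thresholds, added reads and entry sets. Counting 1 name per opposite-strand pair and 1 entry per hairpin was added after seeing the data. The script was tested on simulated data. Python 3.11.15, numpy 2.4.6, pandas 2.3.3, scipy 1.17.1, matplotlib 3.10.9 and RNAfold 2.7.2 were used.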

Additional observations from a re-analysis of the deposited data

How the results depend on the processing

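Of the 9 members at 50 or more normalized reads, 3 differed at least 2-fold; 8 did at 1.5-fold and 1 at 4-fold. Of the 33 at 10 or more, 15 did, with 3 at 4-fold, 7 where the whole counting interval lay beyond 2-fold, and 58 of 143 without a floor. The other settings gave from 11 (total reads) to 21 (1.5-fold). Over all named miRNAs, 36 of 179 at 50 or more and 66 of 288 at 10 or more differed at least 2-fold. The whole interval lay beyond 2-fold for 16.3% of the 288. At 1.5-fold, at 4-fold and without a floor no count over all named miRNAs was made, so the members' counts there have no background. The median log2 ratio of -0.58 became -0.34 with total reads, -0.48 with total reads without the 10 most abundant miRNAs and -0.75 at a floor of 200. It became -0.087 without a floor (all named miRNAs -0.03) and -0.41 with 1 entry per hairpin. The share of reads, 0.390% in UM-SCC6-M and 0.359% in the parental library, became 0.379% and 0.353% without the fragment list and 0.243% and 0.314% without miR-4521. Of 228 recomputed ratios of 38 named members, 214 stayed within their counting interval and 14 moved outside it (miR-1303 to 0.40 with total reads). Among members whose interval excluded equal levels, 0 changed sign. With total reads, all 9 members at 50 or more normalized reads left their interval. For these 9, the choice of scaling moved the ratio by more than counting error. No paired analysis was possible because each group has 1 library. Depth limits the 111 members under 10 normalized reads most.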
